A study of Homo sapiens with 12 samples.

Results

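The purine salvage and breakdown enzymes described here were 10 genes: HPRT1, APRT, ADK, DCK, PNP, ADA, AMPD2, NT5E, XDH and AOX1. They were chosen by name, as the rows of the count tables whose gene symbol equalled one of these, and all 10 were present among the 46350 named genes. The tables came from RNA sequencing of 12 libraries in 4 groups of 3. SKOV3, a human epithelial ovarian cancer line that the labels call sensitive to cisplatin, was sequenced untreated and after treatment with paeonol (PAE), a small phenolic compound of plants. SKOV3/DDP, the line that the labels call resistant to cisplatin, was sequenced untreated and after PAE in the same way. Each group is a single established cell line. The labels used here give no dose, duration, vehicle or batch and do not say whether the 3 libraries of a group came from separate cultures, so the p-values measure only the spread between these libraries, which may be technical.

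Cells make purine nucleotides from small precursors (de novo synthesis) or recover them from bases and nucleosides (salvage). HPRT1 joins hypoxanthine and guanine to phosphoribosyl pyrophosphate, APRT does so with adenine, and ADK and DCK phosphorylate adenosine and deoxynucleosides. AMPD2 deaminates AMP to IMP, while NT5E (CD73) at the cell surface splits AMP to adenosine, ADA deaminates adenosine to inosine, PNP frees the bases from inosine and guanosine, and the molybdenum enzyme XDH oxidizes hypoxanthine and xanthine to urate. AOX1, a close relative of XDH that needs the same cofactor, oxidizes aldehydes and many nitrogen heterocycles.

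Libraries held 14610008 to 18263479 counts, with a median of 16260043. The 3 untreated SKOV3 libraries stood apart from the other 9. Across 10549 genes, the deviation of a gene from its mean over all libraries followed the GC content of its longest transcript with a Spearman correlation of 0.757 to 0.790 in untreated SKOV3, and of -0.681 to -0.456 in the other libraries. Between 17951 and 18240 genes had a count in untreated SKOV3, against 21469 to 23194 elsewhere. The comparison of the untreated lines, that of PAE in SKOV3 and the difference of the PAE effect between the lines use untreated SKOV3 and carry this trend, and their values are given below also from a fit with every library's trend over GC content and length taken out. Whether the trend came from the libraries or from the cells cannot be told apart. In bulk RNA, moreover, fewer cells of a kind and less RNA per cell cannot be told apart. SKOV3/DDP also differed from SKOV3 in defining markers. A list of 6 intestinal epithelial markers summed to 532 to 576 CPM (counts scaled to library size, TMM-normalized) in untreated SKOV3/DDP and 163 to 249 CPM with PAE, against at most 0.887 CPM in any SKOV3 library, and CDX1, CDX2, VIL1, CDH17 and GPA33 had 0 counts in all 3 untreated SKOV3 libraries. The 5 ovarian markers summed to 178 to 184 CPM in untreated SKOV3 and 340 to 436 CPM in untreated SKOV3/DDP, where fewer of them reached a mean of 1 CPM (2 against 3) and MSLN made up most of the sum. All 6 epithelial markers reached a mean of 1 CPM in both untreated lines, and some differed greatly in level. KRT7 was at 3607 CPM in untreated SKOV3 and 1.22 CPM in untreated SKOV3/DDP, and EPCAM at 1.27 and 289 CPM. KRT19 and CDH1 were, like EPCAM, far higher in SKOV3/DDP. KRT8 was abundant in both, at 3081 to 3699 CPM in SKOV3 and 5213 to 5405 CPM in SKOV3/DDP, as was KRT18 (1449 to 1526 and 3383 to 5425 CPM). The sum of the 6 epithelial markers fell with PAE in both lines. It went from 8068 to 8854 CPM down to 2590 to 3479 CPM in SKOV3, and from 10640 to 12870 CPM down to 2337 to 3347 CPM in SKOV3/DDP. The single markers did not all follow the sum. In SKOV3, KRT7, KRT8 and KRT18 were lower with PAE and KRT19 overlapped. CDH1 was higher there, at 20.15 to 73.7 CPM against 3.32 to 13.1 CPM, as was EPCAM (5.23 to 8.42 against 0.426 to 1.95 CPM). In SKOV3/DDP all but KRT7, which overlapped, were lower. With PAE, the sum of the 5 ovarian markers was 39.6 to 96.3 CPM in SKOV3 and 250 to 368 CPM in SKOV3/DDP. In SKOV3/DDP the mitochondrial share of counts went with PAE from 8.66% to 11.2% down to 3.93% to 8.67%. In SKOV3 that share was 1.29% to 1.963% untreated and 1.82% to 2.44% with PAE. The part of these shifts in the enzyme levels was not tested.

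Promoters are shown for the 3 enzymes that rose with PAE in SKOV3 in both fits (AOX1, XDH and DCK) and for NT5E, which was higher in SKOV3/DDP than in SKOV3 with and without PAE and fell with PAE in SKOV3/DDP. Each is the RefSeq sequence on GRCh38.p14 from 250 bases before to 50 bases after the annotated start, read 5′ to 3′ on the strand of the gene. Capitals mark matches on either strand to the E-box (CACGTG), the core of the antioxidant response element (TGACNNNGC), the GC box (GGGCGG) or the core of the xenobiotic response element (GCGTG), all background motifs.
AOX1, plus strand, chr2:200585764-200586063: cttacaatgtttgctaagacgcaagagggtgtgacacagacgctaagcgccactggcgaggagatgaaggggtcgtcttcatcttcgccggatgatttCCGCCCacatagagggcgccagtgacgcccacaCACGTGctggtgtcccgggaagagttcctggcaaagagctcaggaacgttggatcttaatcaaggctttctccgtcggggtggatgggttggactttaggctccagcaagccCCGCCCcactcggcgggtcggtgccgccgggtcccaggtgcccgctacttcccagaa
XDH, minus strand, chr2:31414693-31414992: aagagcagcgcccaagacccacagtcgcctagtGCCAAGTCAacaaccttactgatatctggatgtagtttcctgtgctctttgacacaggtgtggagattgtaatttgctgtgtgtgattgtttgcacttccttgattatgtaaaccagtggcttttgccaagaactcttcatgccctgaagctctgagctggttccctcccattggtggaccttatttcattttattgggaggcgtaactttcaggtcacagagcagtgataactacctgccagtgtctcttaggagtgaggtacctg
DCK, plus strand, chr4:70993399-70993698: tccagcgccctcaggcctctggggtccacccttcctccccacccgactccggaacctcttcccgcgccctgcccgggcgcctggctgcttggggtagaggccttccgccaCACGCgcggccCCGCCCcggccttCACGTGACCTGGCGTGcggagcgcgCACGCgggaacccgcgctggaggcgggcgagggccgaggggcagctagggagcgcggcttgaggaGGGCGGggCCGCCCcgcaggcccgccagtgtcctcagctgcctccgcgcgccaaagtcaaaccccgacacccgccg
NT5E, plus strand, chr6:85449833-85450132: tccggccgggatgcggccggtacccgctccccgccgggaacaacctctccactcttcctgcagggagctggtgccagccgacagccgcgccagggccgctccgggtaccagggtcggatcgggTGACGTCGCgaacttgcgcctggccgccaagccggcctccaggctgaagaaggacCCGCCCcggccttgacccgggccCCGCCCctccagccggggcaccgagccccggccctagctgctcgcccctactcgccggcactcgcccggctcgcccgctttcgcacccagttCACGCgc

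The AOX1 window held 1 E-box and 2 GC boxes. The DCK window held 3 GC boxes, 3 xenobiotic cores, 1 E-box and 1 antioxidant core, the last of which overlapped the E-box on one side and a xenobiotic core on the other. The NT5E window held 1 antioxidant core, 2 GC boxes and 1 xenobiotic core. The XDH window was the only one of the 10 without a GC box, held 1 antioxidant core and contained 3 CpG dinucleotides at 47.0% GC, against a median of 14 CpG and 58.3% GC over 27305 promoters. Over the 10 members, 9 windows held a GC box, 6 a xenobiotic core, 4 an antioxidant core, 3 an E-box (DCK, AMPD2 and AOX1) and none the letters TATAAA. Of all promoters of this length, 44.6% held the GC box, 36.3% the xenobiotic core, 13.6% the antioxidant core, 7.43% the E-box and 12% TATAAA. These matches describe the letters of the windows and not sites of binding.

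The balance of the enzymes differed between the groups. Per kilobase of transcript, APRT was the most abundant member in untreated SKOV3 at 1095 ± 141 CPM per kb (SD, n = 3), or 78.1% of the sum over the 10 members. NT5E was first in untreated SKOV3/DDP at 113 ± 21.6 CPM per kb, or 33.9% of the sum. PNP was first in both treated groups, at 132 ± 71.4 CPM per kb in SKOV3 with PAE (36.5%) and 108 ± 18.8 CPM per kb in SKOV3/DDP with PAE (38.7%), although its spread in SKOV3 with PAE reached that of APRT at 98.8 ± 36.9 CPM per kb. XDH and AOX1 were the lowest members in every group. Untreated SKOV3 held the highest group mean of 4 members and the lowest of 6. The plot of CPM by library shows this for each member.

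**Figure D1:**
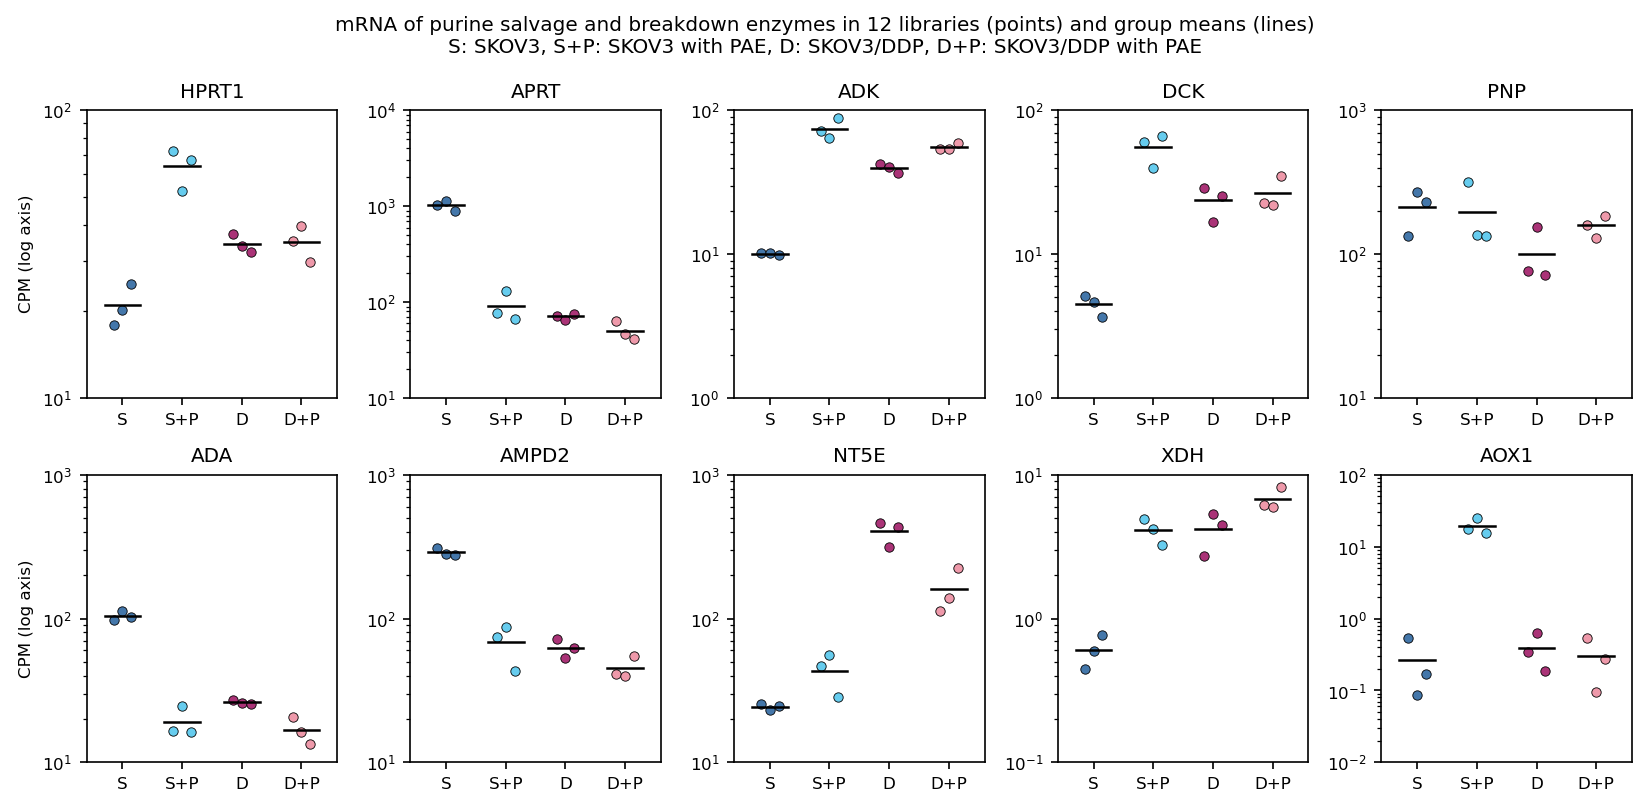
CPM of the 10 members on a log axis in 12 libraries (points, 3 per group) with the mean of each group (line). APRT, ADA and AMPD2 were highest in the 3 untreated SKOV3 libraries, NT5E in the 3 untreated SKOV3/DDP libraries, and AOX1 in the 3 SKOV3 libraries with PAE.

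Among the salvage enzymes, APRT stood at 1036, 1142 and 881 CPM in untreated SKOV3, at 77.5, 131 and 67.4 CPM in SKOV3 with PAE, at 72.4, 64.9 and 75.5 CPM in SKOV3/DDP, and at 63.2, 46.4 and 41.4 CPM in SKOV3/DDP with PAE. The 3 untreated SKOV3 libraries were far above the other 9, and SKOV3 with PAE overlapped untreated SKOV3/DDP. APRT is the sole enzyme that returns adenine to AMP.

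HPRT1 was measured at 17.9, 20.3 and 24.9 CPM in untreated SKOV3, 72.1, 52.5 and 67.2 CPM in SKOV3 with PAE, 37.3, 33.8 and 32.1 CPM in SKOV3/DDP, and 35.1, 39.5 and 29.8 CPM in SKOV3/DDP with PAE. Its order was therefore SKOV3 with PAE, then both SKOV3/DDP groups, which overlapped, then untreated SKOV3. HPRT1 is the salvage enzyme for hypoxanthine and guanine, and its pseudogenes HPRT1P1 and HPRT1P3 had 0 counts in all libraries.

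ADK, which returns adenosine to AMP, had 10.1, 10.1 and 9.92 CPM in untreated SKOV3, 72.2, 64.0 and 87.7 CPM in SKOV3 with PAE, 42.0, 40.2 and 36.5 CPM in SKOV3/DDP, and 54.2, 53.4 and 59.1 CPM in SKOV3/DDP with PAE. No group overlapped another. Of 6 genes that lie within or across ADK, none exceeded 0.344 CPM in a library, so little of the ADK count can be shared with them. DCK, the kinase of deoxycytidine, deoxyadenosine and deoxyguanosine that also activates several nucleoside drugs, had 5.14, 4.69 and 3.64 CPM in untreated SKOV3, 60.2, 40.0 and 66.7 CPM in SKOV3 with PAE, 28.8, 16.7 and 25.5 CPM in SKOV3/DDP, and 22.6, 21.8 and 35.2 CPM in SKOV3/DDP with PAE. Its 2 SKOV3/DDP groups overlapped, and the 3 SKOV3 libraries with PAE were above all others.

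AMPD2, which opens the route from AMP to IMP, was high in untreated SKOV3 (311, 281 and 276 CPM) and lower in SKOV3 with PAE (74.3, 87.6 and 43.5 CPM), SKOV3/DDP (72.6, 53.2 and 62.1 CPM) and SKOV3/DDP with PAE (41.3, 40.1 and 55.1 CPM). The last 3 groups overlapped each other.

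Among the breakdown enzymes, NT5E was at 25.6, 23.3 and 24.5 CPM in untreated SKOV3, 46.5, 55.8 and 28.3 CPM in SKOV3 with PAE, 461, 316 and 433 CPM in SKOV3/DDP, and 113, 140 and 225 CPM in SKOV3/DDP with PAE. The 4 groups did not overlap, and every SKOV3/DDP library was above every SKOV3 library. NT5E makes the extracellular adenosine that adenosine receptors bind.

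ADA, the next step from adenosine, had 98.1, 113 and 103 CPM in untreated SKOV3, 16.5, 24.8 and 16.4 CPM in SKOV3 with PAE, 27.1, 25.95 and 25.6 CPM in SKOV3/DDP, and 20.6, 16.4 and 13.5 CPM in SKOV3/DDP with PAE. Only both treated groups overlapped each other. PNP had 133, 270 and 231 CPM in untreated SKOV3, 317, 135 and 134 CPM in SKOV3 with PAE, 76.9, 154 and 71.5 CPM in SKOV3/DDP, and 161, 130 and 185 CPM in SKOV3/DDP with PAE. Each of its groups overlapped the next in order, and in 3 of them a single library stood well away from the other two.

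XDH was low throughout, at 0.443, 0.597 and 0.763 CPM in untreated SKOV3 (5, 7 and 9 counts), 4.94, 4.22 and 3.26 CPM in SKOV3 with PAE, 2.71, 5.37 and 4.47 CPM in SKOV3/DDP, and 6.13, 5.97 and 8.14 CPM in SKOV3/DDP with PAE. AOX1 had 6, 1 and 2 counts in untreated SKOV3, 303, 493 and 296 counts in SKOV3 with PAE, 6, 10 and 3 counts in SKOV3/DDP, and 11, 2 and 5 counts in SKOV3/DDP with PAE. In CPM, AOX1 was 0.532, 0.0852 and 0.170 in untreated SKOV3 and 17.6, 25.04 and 15.6 in SKOV3 with PAE. All 3 SKOV3 libraries with PAE were above the other 9, which overlapped between their groups at 0.631 CPM or less.

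The comparison of PAE with no treatment in SKOV3/DDP, which asks what the compound does in the resistant line, sets none of the libraries that stood apart against another, although they entered the fit of 12 libraries. Of the 10 members, 0 rose and 2 fell, NT5E and ADA, against 26.4% of all 17133 genes tested (11.8% higher and 14.7% lower). A call here and below is an adjusted p under 0.05 (Benjamini-Hochberg) in the quasi-likelihood test of edgeR. The median log2 fold change over the members was -0.16, and 0 over all genes. Libraries of the 2 groups did not overlap for 5 of the 10 members, as for 45.1% of all genes.

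NT5E fell by 1.34 on the log2 scale (SE 0.286, edgeR adjusted p = 0.00396), to 159 ± 58.7 CPM from 403 ± 76.9 CPM (SD, n = 3 each), and all 3 treated libraries were below all 3 untreated ones. With the trend removed the log2 change was -1.39 (edgeR adjusted p = 0.00247). NT5E kept its call in every fit that left out 1 library, with log2 changes of -1.64 to -1.11. ADA fell by 0.64 (SE 0.220, edgeR adjusted p = 0.0433), to 16.8 ± 3.58 CPM from 26.2 ± 0.793 CPM. This call of ADA lay near the threshold. It was lost with scaling by library size only (edgeR adjusted p = 0.147), without a filter on low counts (0.114), with the replicate number as a block (0.0546) and on leaving out any library of the 2 groups other than replicate 1 of SKOV3/DDP with PAE (0.0723 to 0.174).

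For the other 8 members the test was not passed. ADK had a log2 fold change of 0.49 (SE 0.183, edgeR adjusted p = 0.0609, 95% interval 0.13 to 0.85) with higher values in all 3 treated libraries, and passed in DESeq2 (0.50, adjusted p = 0.0335) and with scaling by library size only (0.66, edgeR adjusted p = 0.0183). XDH had 0.69 (95% interval 0.02 to 1.36), PNP 0.66 (-0.08 to 1.39), APRT -0.50 (-0.99 to 0.00288) and AMPD2 -0.46 (-0.95 to 0.02), all in log2 units. The intervals are normal ones and not those of the test, and that of XDH left out 0 at an unadjusted edgeR p of 0.0624. PNP passed without a filter on low counts (edgeR adjusted p = 0.0493) and without SKOV3/DDP replicate 2 (1.10 on the log2 scale, edgeR adjusted p = 0.0475). HPRT1 and DCK had intervals of -0.39 to 0.42 and -0.38 to 0.70 around 0.017 and 0.16. AOX1, with 19 counts over the untreated group and 18 over the treated one, had an interval of -1.61 to 0.93, which is wide at this depth.

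**Figure D2:**
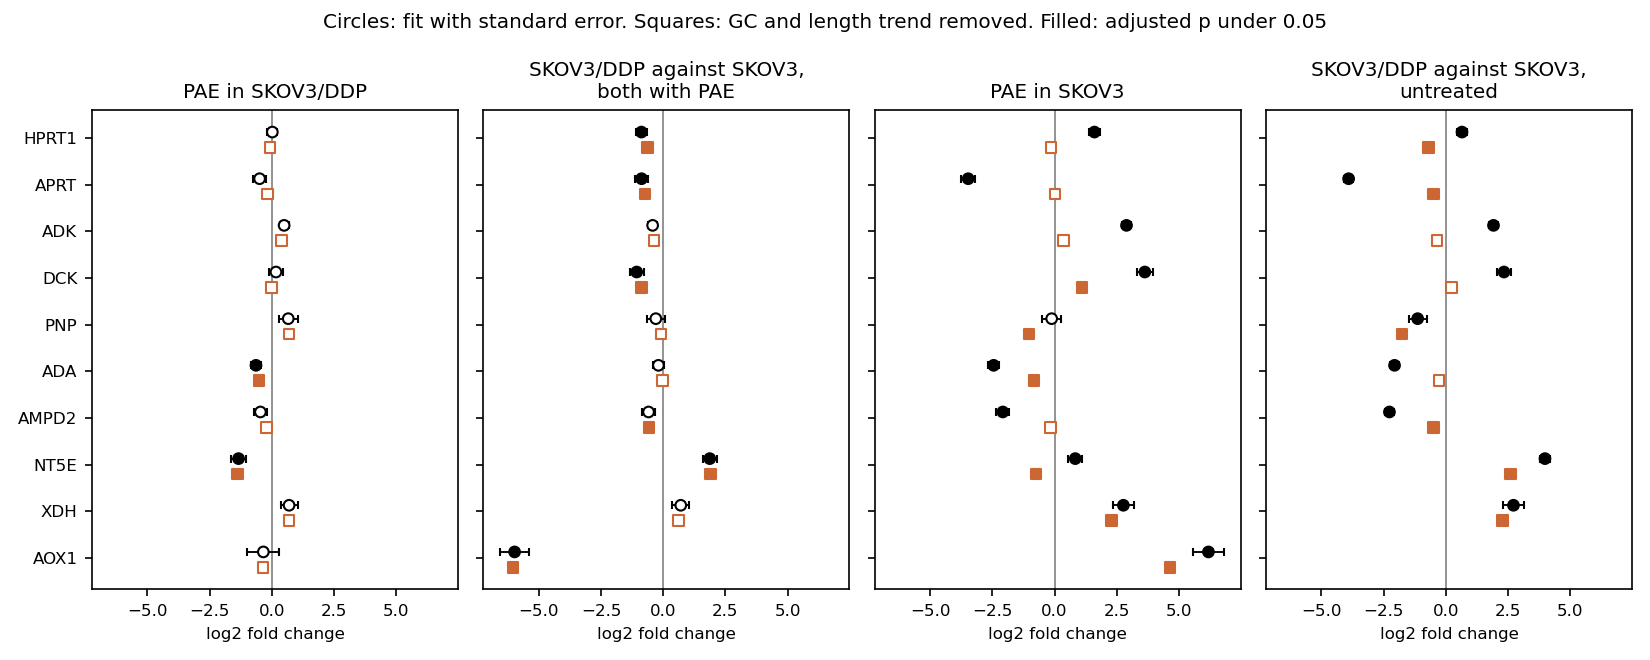
Log2 fold changes of the 10 members in 4 comparisons, with standard errors (circles) and with the trend on GC content and length removed (squares); filled symbols have an adjusted p under 0.05. In the panels of PAE in SKOV3/DDP and of the treated lines, circles and squares have the same sign except for HPRT1 and DCK with PAE in SKOV3/DDP. In the panels that use untreated SKOV3 they lie far apart for APRT, HPRT1, ADK, DCK, ADA, AMPD2 and NT5E, and closest for XDH. AOX1 was not tested between the untreated lines, and its circle and square lie far apart with PAE in SKOV3.

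Between the lines under PAE, where untreated SKOV3 again entered the fit but not the contrast, 5 members differed, against 54.5% of all genes tested (27.5% higher and 27.1% lower in SKOV3/DDP). NT5E was higher in SKOV3/DDP, by 1.87 on the log2 scale or 3.66-fold (SE 0.291, edgeR adjusted p = 7.43e-05). AOX1 was lower by far, at -5.97 or 62.8-fold lower (SE 0.588, edgeR adjusted p = 7.43e-07), with 18 counts over 3 libraries against 1092. Without replicate 1 of SKOV3/DDP with PAE, which held 11 of those 18 counts, the log2 value of AOX1 was -6.70.

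The 3 other calls were all in salvage enzymes. HPRT1 was 1.84-fold lower in SKOV3/DDP with PAE (log2 -0.88, SE 0.207, edgeR adjusted p = 0.00229), APRT 1.83-fold lower (-0.87, SE 0.255, 0.00945) and DCK 2.10-fold lower (-1.07, SE 0.277, 0.00439). The call of APRT was lost without SKOV3 with PAE replicate 2, its highest library (log2 -0.54, edgeR adjusted p = 0.0627). ADK had -0.43 (edgeR adjusted p = 0.0600) and AMPD2 -0.59 (0.0555), both on the log2 scale and both just outside the threshold. In a fit of the 9 libraries other than untreated SKOV3, added after the data had been seen, ADK (-0.50, edgeR adjusted p = 0.0251) and AMPD2 (-0.67, 0.0386) passed as well, for 7 members in all, against 56% of all genes in that fit. With the trend removed, the same 5 members passed in the same direction, and AMPD2 in addition (-0.57, edgeR adjusted p = 0.0269), against 59.1% of all genes. PNP (95% interval -1.03 to 0.43), ADA (-0.62 to 0.24) and XDH (0.03 to 1.37) did not pass. Libraries did not overlap for 7 of 10 members, as for 61.2% of all genes, and the median log2 difference of the members was -0.51, against 0.06 over all genes.

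PAE in SKOV3 was compared with the untreated SKOV3 libraries that stood apart. In this comparison 6 members rose, 3 fell and PNP did not pass, against 75.3% of all genes called (42.6% higher and 32.7% lower), so that a call by itself was common. Libraries did not overlap for 9 of 10 members, as for 77.4% of all genes. AOX1 rose the most, by 6.18 on the log2 scale (SE 0.627, edgeR adjusted p = 3.27e-07), followed by DCK (3.63, SE 0.313), ADK (2.89, SE 0.199), XDH (2.77, SE 0.408), HPRT1 (1.60, SE 0.212) and NT5E (0.83, SE 0.288, edgeR adjusted p = 0.0164). APRT fell by 3.47 (SE 0.278), ADA by 2.45 (SE 0.229) and AMPD2 by 2.08 (SE 0.255). The AOX1 value rests on few untreated counts, and was 7.17 without SKOV3 replicate 1, which held 6 of the 9 untreated counts. The call of NT5E was lost without SKOV3 with PAE replicate 2 (0.62, edgeR adjusted p = 0.0801) and in DESeq2 (0.58, adjusted p = 0.0777).

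The members that rose had transcripts of 38.8% to 50.04% GC, and those that fell 53.8% to 63.6%. Over the 10 members, the Pearson correlation of GC content with the log2 change was -0.75 for PAE in SKOV3 and -0.35 for PAE in SKOV3/DDP, given as a description across genes of the same libraries. Over all tested genes, the median log2 change with PAE in SKOV3 was 2.85 in transcripts under 45% GC, 0.44 between 45% and 55%, and -2.03 above 55%. The corresponding medians in SKOV3/DDP were 0.15, 0 and -0.21. Of the 9 members called, 8 moved in the direction of the median of their GC class. AOX1 and XDH lay well above that median, and ADA, which fell in a class with a median above 0, lay below it. PNP, at 44.9% GC, lay below the median of its class by a similar distance and was not called.

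**Figure D3:**
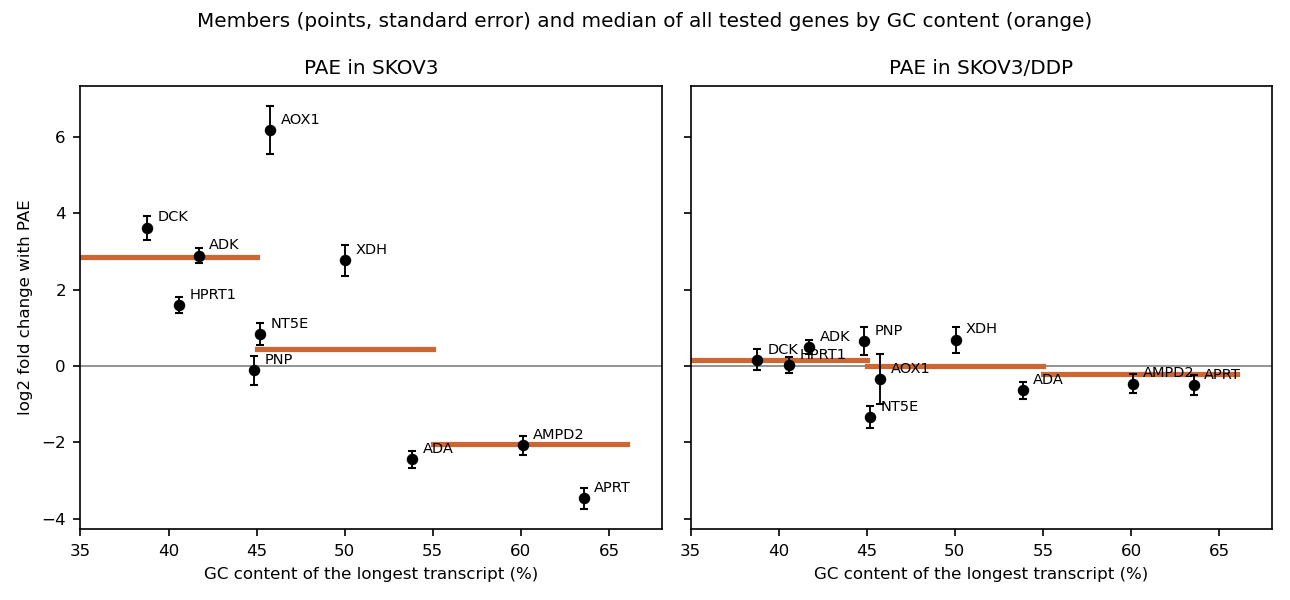
Log2 fold change with PAE (vertical axis, standard error) against GC content of the longest transcript (horizontal axis, percent) for the 10 members, with the median of all tested genes under 45%, from 45% to 55% and over 55% GC (orange). In SKOV3 the medians run from 2.85 to -2.03 and AOX1 and XDH lie above that of their class while ADA and PNP lie below; in SKOV3/DDP the medians run from 0.15 to -0.21 and NT5E lies below.

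With the trend on GC content and length removed, 6 members passed in SKOV3, against 50.3% of all genes, and 4 of them kept their direction. AOX1 (4.63, edgeR adjusted p = 2.86e-05), XDH (2.29, 0.000352) and DCK (1.11, 0.00333) were higher with PAE and ADA was lower (-0.82, 0.00109), all on the log2 scale. NT5E turned from higher to lower (-0.75, 0.0406), and PNP became lower (-1.03, 0.0299). HPRT1 (-0.14), APRT (0.017), ADK (0.36) and AMPD2 (-0.17) no longer passed. PAE and the GC trend separate the same libraries in SKOV3 and cannot be told apart there.

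The untreated lines were compared to ask how SKOV3/DDP differs from SKOV3 before treatment, and this comparison shares the untreated SKOV3 libraries with the one above. With a single line of each kind, resistance and other differences between the lines cannot be told apart. AOX1 was left out by the filter on low counts. The other 9 members all differed, 5 higher and 4 lower in SKOV3/DDP, against 84.7% of 15323 genes (46.1% higher and 38.5% lower). Libraries did not overlap for 8 of the 9, all but PNP, as for 86.5% of all genes. NT5E was 15.8-fold higher in SKOV3/DDP (log2 3.98, SE 0.199, edgeR adjusted p = 9.74e-07), and XDH (log2 2.72), DCK (2.34), ADK (1.91) and HPRT1 (0.65) were higher too. APRT was 15.0-fold lower (log2 -3.91, SE 0.177, edgeR adjusted p = 8.20e-07), with AMPD2 (-2.27), ADA (-2.06) and PNP (-1.13) also lower. With the trend removed, 6 members passed, against 69.6% of all genes. NT5E (2.60, edgeR adjusted p = 1.24e-05) and XDH (2.29, 0.00183) were still higher, and PNP (-1.77, 0.00209), APRT (-0.50, 0.0210) and AMPD2 (-0.50, 0.0189) still lower. HPRT1 changed sign (-0.70, 0.0116), while ADK (-0.36), DCK (0.23) and ADA (-0.27) no longer passed. The call of PNP was lost without SKOV3 replicate 2, SKOV3 replicate 3, SKOV3/DDP replicate 1 or SKOV3/DDP replicate 3 (log2 -1.08 to -0.90, edgeR adjusted p = 0.0502 to 0.0715), and with scaling by library size only (-0.41, 0.260). The call of HPRT1 was lost without SKOV3/DDP replicate 1 (0.63, edgeR adjusted p = 0.0557) and in DESeq2 (0.43, adjusted p = 0.0732).

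NT5E, higher in SKOV3/DDP, and APRT, lower there, were the members that differed between the lines in the same direction with and without PAE, before and after the trend was removed. For NT5E this held although it fell with PAE in SKOV3/DDP. In SKOV3/DDP with PAE it was still 159 ± 58.7 CPM, against 24.5 ± 1.18 CPM in untreated SKOV3. The lowest SKOV3/DDP library with PAE, at 113 CPM, was above the highest SKOV3 library with PAE, at 55.8 CPM.

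The effect of PAE differed between the lines for 9 of 10 members, 3 upward and 6 downward (the interaction term of the same fit), against 62.9% of all genes (25.5% upward and 37.4% downward). The AOX1 value of -6.53 was -7.51 without SKOV3 replicate 1 and -7.22 without replicate 1 of SKOV3/DDP with PAE. With the trend removed, 4 of 10 passed, against 41.8% of all genes, a share near that of the members. The effect in SKOV3/DDP was below that in SKOV3 for AOX1 (-4.99, edgeR adjusted p = 0.000543), XDH (-1.60, 0.0235) and DCK (-1.12, 0.0229), and above it for PNP (1.73, 0.0155), all on the log2 scale.

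The other genes of purine metabolism were 81 genes in 10 lists, of which 67 were tested between the untreated lines and 69 in the other comparisons. With PAE in SKOV3/DDP, 4 rose and 17 fell (30.4%, against 26.4% of all genes, median log2 change -0.45 against 0 over all genes). Between the treated lines 16 were higher and 29 lower in SKOV3/DDP (65.2%, against 54.5% of all genes, median -0.32). In the comparisons with untreated SKOV3, 26 rose and 29 fell with PAE (79.7%, against 75.3% of all genes), and 32 were higher and 29 lower in SKOV3/DDP (91.0%, against 84.7%).

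Guanine deaminase (GDA), which turns guanine into xanthine ahead of XDH, showed opposite changes in the 2 lines. It had 5.06, 1.62 and 5.68 CPM in untreated SKOV3, 164, 201 and 200.3 CPM with PAE, 138, 112 and 114 CPM in SKOV3/DDP, and 17.3, 16.6 and 24.7 CPM in SKOV3/DDP with PAE. It rose with PAE in SKOV3 (log2 5.51, 2.31 with the trend removed) and fell by 2.63 in SKOV3/DDP (SE 0.325, edgeR adjusted p = 0.000126, -2.86 with the trend removed). The 3 tested genes of its list, ADAL, GDA and LACC1, were all higher with PAE in SKOV3, where 42.6% of all genes were. With the trend removed, 2 of them were. The transcripts of GDA and LACC1, at 37.9% and 38.9% GC, lie in the class whose median log2 change there was 2.85 over all genes. LACC1, a purine nucleoside enzyme, also rose in SKOV3/DDP (0.77, edgeR adjusted p = 0.0377), a call that was lost with the trend removed (0.0670), with the block (0.0605), without a filter on low counts (0.0921), in the 9 libraries (0.0517) and without any of SKOV3/DDP replicates 1 to 3 or replicate 2 of SKOV3/DDP with PAE (0.0838 to 0.134).

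XDH and AOX1 both need the molybdenum cofactor, whose synthesis begins with the protein of MOCS1. MOCS1 had 0 counts in all 6 SKOV3 libraries, which allows up to 0.0862 CPM in the untreated and 0.0537 CPM in the treated group (3 counts over the TMM-scaled total of the group, counting error only). It was at 13.02 ± 1.06 CPM in SKOV3/DDP and 10.7 ± 1.16 CPM with PAE, and on the same scale at least 151-fold higher than in untreated SKOV3 and at least 199.6-fold higher than in SKOV3 with PAE. AOX1 was thus highest in a group where MOCS1 was not detected. MOCS2, which acts in the following step, was detected in every group (16.2 ± 1.27, 49.3 ± 11.4, 42.7 ± 1.90 and 63.8 ± 14.6 CPM in SKOV3, SKOV3 with PAE, SKOV3/DDP and SKOV3/DDP with PAE), as was GPHN, gephyrin, which completes the cofactor (5.38 ± 2.44, 14.0 ± 0.957, 12.4 ± 3.50 and 26.4 ± 8.61 CPM). Of the 9 genes of this list, GPHN rose with PAE in SKOV3/DDP (1.09, SE 0.336, edgeR adjusted p = 0.0275), a call lost with the block (0.0503) and without any of SKOV3/DDP replicates 1 and 3 or replicates 1 and 3 of SKOV3/DDP with PAE (0.0705 to 0.0998), and the other 8 did not pass.

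Next to NT5E in the adenosine pathway, both tested receptors fell with PAE in SKOV3/DDP, where 14.7% of all genes did, ADORA1 by 1.89 (SE 0.376, edgeR adjusted p = 0.00259) and ADORA2B by 1.23 (SE 0.197, 0.000628). They were also lower with PAE in SKOV3 (-3.26 and -0.53), where the trend-removed values were -1.14 and -2.76. Of the nucleoside carriers, SLC29A2 fell by 1.72 in SKOV3/DDP (edgeR adjusted p = 0.000389), and SLC29A3, a lysosomal carrier, had 0.70 (0.0311), a call lost under the block (0.0526), without a filter on low counts (0.0959), in the 9 libraries (0.0579) and without any of SKOV3/DDP replicates 1 and 3 or replicates 1 and 2 of SKOV3/DDP with PAE (0.0539 to 0.108). Among the other surface nucleotidases, 1 of 8 tested fell with PAE in SKOV3/DDP and none rose, where 14.7% of all genes fell and 11.8% rose. Their median log2 change was -0.93, against 0 over all genes. Libraries did not overlap, in either direction, for 7 of the 8, against 45.1% of all genes. ENTPD2, which hydrolyses extracellular ATP, was higher in SKOV3/DDP than in SKOV3 under PAE by 3.92 (SE 0.453, edgeR adjusted p = 4.00e-06, 4.75 without SKOV3 with PAE replicate 2). Within SKOV3/DDP it was at 25.9 to 32.2 CPM with PAE, against 53.6 to 62.1 CPM untreated.

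The list of de novo enzymes was partial and held PPAT, GART, PFAS, PAICS and ATIC. ADSL, ADSS2, GMPS and IMPDH2 were in the list of AMP, IMP and GMP interconversion and were not counted here. Of the 5 de novo enzymes tested, 3 fell with PAE in SKOV3/DDP, where 14.7% of all genes did. In SKOV3 3 rose and 1 fell, where 75.3% of all genes were called. With the trend removed, 4 fell in SKOV3/DDP, where 31.9% of all genes were called. In SKOV3 3 then rose and 0 fell, where 50.3% were called. PFAS fell by 1.28 in SKOV3/DDP (SE 0.249, edgeR adjusted p = 0.00226), to 6.26 ± 1.68 CPM. It was also lower with PAE in SKOV3, at 21.1 to 33.4 CPM against 77.4 to 92.1 CPM before the trend was removed. PAICS rose from 16.7 ± 3.91 to 266 ± 30.3 CPM in SKOV3 (log2 3.996, 1.45 with the trend removed). In SKOV3/DDP it was lower with PAE, at 88.9 to 107 CPM against 166 to 170 CPM. Among other large changes with PAE in SKOV3, NT5C3A rose (3.56, 1.12 with the trend removed), and GUK1 (-3.88, -0.90), NT5M (-3.31, -0.87) and NME3 (-3.27, 0.24) fell before the trend was removed. NME3 thus changed sign.

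Some genes of nucleotide interconversion and transport differed greatly in level between the lines, with AK4 and SLC43A3 nearly absent from SKOV3/DDP. AK4, a mitochondrial adenylate kinase, had 7472 counts over the 3 SKOV3 libraries with PAE and 1 count over those of SKOV3/DDP with PAE, and 661 against 2 counts in the untreated groups, a ratio of 470.1 per TMM-scaled total with an exact 95% counting interval of 129.6 to 3890. SLC43A3, a purine base carrier, was at 71.9 ± 12.1 CPM in SKOV3 with PAE and 0.283 ± 0.0424 CPM in SKOV3/DDP with PAE, and at 48.8 ± 7.11 and 0.992 ± 1.12 CPM in the untreated lines, where leaving out SKOV3/DDP replicate 2 moved the log2 difference from -5.68 to -7.10. ADSS1 was lower in SKOV3/DDP too (4.61 ± 1.24 against 25.8 ± 7.03 CPM with PAE), and GMPR (17.1 ± 3.51 against 1.82 ± 0.717 CPM) and SLC29A4 (23.1 ± 2.39 against 5.27 ± 3.34 CPM) were higher, the last by 2.13 on the log2 scale or 2.72 without SKOV3 with PAE replicate 2. AK9 was 4.93 higher in untreated SKOV3/DDP on the log2 scale, and 5.73 without SKOV3 replicate 1. AK6 passed with PAE in SKOV3/DDP (4.73, edgeR adjusted p = 0.0220) on the strength of 1 library, at 1.08, 22.98 and 0.440 CPM. It had 1.36 (edgeR adjusted p = 0.402) without SKOV3/DDP with PAE replicate 2, and missed the threshold also without any of SKOV3/DDP replicates 1 to 3 (0.0577 to 0.0636).

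The genes whose log2(CPM + 1) followed the 3 members of widest range most closely over the 12 libraries, among 10885 candidates, were listed as a description. The points share the libraries and the GC trend. For APRT they were FKBP8 (Pearson r = 0.999), REX1BD (0.998) and TIMM17B (0.998), with transcripts of 66.6%, 55.5% and 56.5% GC. For AOX1 they were MEIOB (0.995), IL20 (0.989) and TNFSF10 (0.988), which averaged 12.3, 11.7 and 22.8 CPM in SKOV3 with PAE and at most 0.619 CPM in any other group. For NT5E they were ATP8B1 (0.987), ANTXR2 (0.986) and SYTL2 (0.985), which averaged 50.9, 320.2 and 270.3 CPM in untreated SKOV3/DDP and 17.7, 117 and 84.6 CPM with PAE.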

How the data were processed

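Poly-A RNA of 12 libraries was sequenced, and the authors deposited 12 tables, 1 per library, of whole-number counts per gene without normalization. The submitters' processing notes name HISAT2 2.0.5, StringTie 1.3.3b, DESeq2 and edgeR without their roles, and the counting strand is not given in the sources used here. Coordinates were on GRCh38, where 7 of the 10 members had the start that RefSeq gives. The 869 loci without a gene name held 0.126% to 0.678% of counts and were left out.

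Counts were analysed in R 4.3.3 with edgeR 4.0.16 (filterByExpr, TMM, quasi-likelihood test, Benjamini-Hochberg adjustment over all genes tested at 0.05). A fit of the 6 untreated libraries gave the comparison of the untreated lines (15323 genes), and all other comparisons came from 1 fit of 12 libraries and 4 groups (17133 genes). Standard errors were the absolute log2 change over the square root of F, and 95% intervals are the normal ones around it. Such an interval can leave out 0 where the unadjusted p of the test is above 0.05. CPM are TMM-normalized in the fit of 12 libraries, and levels of different genes were compared per kilobase of the gene length in the tables. GC content and length were those of the longest GENCODE transcript, known for 94.0% and 91.5% of the genes in the 2 fits, and the trend of each library on both was fitted by splines with 5 degrees of freedom over genes of at least 2 in mean log2 CPM and removed through offsets. Scripts were tested on simulated data.

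Same-numbered libraries were not treated as paired, since no label pairs them. The correlations of their deviations from the group means ran from -0.320 to 0.186. These cannot exclude shared cultures or batches, because differently numbered libraries were not compared. No libraries were duplicates. The alternatives were DESeq2 1.42.0, library sizes without TMM, no filtering of low counts, the replicate block, the trend removal, each library left out in turn, and, added after the data had been seen, a fit without untreated SKOV3.

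The members and the lists were chosen with earlier results of these data known. Beside the 10 members, up to 4 other purine genes of each sign were named per comparison, those with the largest change among genes called, at 5 CPM or more in the higher group and without overlap of libraries. The genes ADAL, ADORA2B, MOCS2 and MOCOS were added after their values had been seen. The 3 members of widest range were each given the 3 most similar genes, among genes averaging 10 CPM or more in their highest group.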

Additional observations from a re-analysis of the deposited data

Results flagged for a closer look

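The effect of PAE differed between the lines, by the interaction term in edgeR's fit of 12 libraries, for 9 of 10 members, against 62.9% of all genes. As the effect in SKOV3/DDP minus that in SKOV3 on the log2 scale, the values were -6.53 for AOX1, -3.47 for DCK, -2.40 for ADK, -2.17 for NT5E, -2.08 for XDH and -1.59 for HPRT1, and 2.98 for APRT, 1.81 for ADA and 1.62 for AMPD2. The AOX1 value was -7.51 without SKOV3 replicate 1 and -7.22 without replicate 1 of SKOV3/DDP with PAE. All of them use the untreated SKOV3 libraries, and the 3 positive ones belonged to the members of highest GC content. With the trend on GC content and length removed, AOX1, DCK and XDH still passed with the same sign, and PNP passed in addition (1.73, edgeR adjusted p = 0.0155). Of all genes, 41.8% then passed. NT5E had opposite signs of change in the 2 lines before the trend was removed, and changes of -0.75 in SKOV3 and -1.39 in SKOV3/DDP after it, a difference that no longer passed (-0.63, edgeR adjusted p = 0.219).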

How the results depend on the processing

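The number of members called was 2 for PAE in SKOV3/DDP and 1 with the replicate block, which was also the number without SKOV3/DDP replicate 1, SKOV3/DDP replicate 3, or replicate 2 or 3 of SKOV3/DDP with PAE (range 1 to 2 over libraries left out). It was NT5E that passed in each of these. Of all genes, 26.4% were called in the main fit, 23.3% with the block and 15.7% to 24.4% over libraries left out. The block changed no other call of a member, and ended those of GPHN, LACC1 and SLC29A3 (edgeR adjusted p = 0.0503 to 0.0605). For the difference of the PAE effect, 9 members passed, and 4 with the GC and length trend removed, against 62.9% and 41.8% of all genes. Over libraries left out, 7 to 9 members passed between the untreated lines, 8 to 9 for PAE in SKOV3, 5 to 6 between the treated lines and 9 to 10 for the difference. The shares of all genes called in these fits were, in the same order, 80.1% to 84.2%, 69.2% to 71.8%, 47.4% to 50.4% and 57.6% to 60.1%.

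Signs changed with the trend removed as follows, in log2 units: between the untreated lines HPRT1 (-0.70) and ADK (-0.36); for PAE in SKOV3 HPRT1 (-0.14), APRT (0.017), NT5E (-0.75) and NME3 (0.24); for PAE in SKOV3/DDP HPRT1 (-0.0725) and DCK (-0.013); for the difference HPRT1 (0.067), APRT (-0.19), ADK (0.030) and AMPD2 (-0.045). PNP with PAE in SKOV3 changed sign with library size only (0.76), and HPRT1 with PAE in SKOV3/DDP without untreated SKOV3 (-0.041). Ranges over libraries left out crossed 0 for PNP with PAE in SKOV3 (-0.65 to 0.098), for DCK (-0.054 to 0.36), AOX1 (-1.03 to 0.17) and HPRT1 (-0.049 to 0.16) with PAE in SKOV3/DDP, and for PNP (-0.52 to 0.23) and ADA (-0.36 to 0.022) between the treated lines. The cause was not tested.

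Over all genes, the trend removal lowered the calls from 12895 to 7884 for PAE in SKOV3 and from 10778 to 6548 for the difference, and leaving out SKOV3/DDP replicate 1 or 3 lowered those of PAE in SKOV3/DDP from 4526 to 2815 or 2837. Scaling by library size only moved the median log2 change of all genes from 0.41 to 1.16 between the untreated lines, from 0.48 to 1.36 for PAE in SKOV3, from 0 to 0.16 for PAE in SKOV3/DDP and from -0.62 to -1.30 for the difference. Higher and lower calls went from 7292 and 5603 to 9058 and 3834 for PAE in SKOV3, from 2014 and 2512 to 2889 and 1913 for PAE in SKOV3/DDP, from 7065 and 5907 to 8256 and 4685 between the untreated lines, and from 4374 and 6404 to 3088 and 7808 for the difference. Depth limited AOX1 in 3 groups and XDH in untreated SKOV3, at 9 to 21 counts over 3 libraries.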
